A study of Mus musculus with 6 samples.

Results

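The translation initiation factor genes were taken as every listed gene whose symbol begins with Eif followed by a digit from 1 to 6, leaving out the sex-linked pair Eif2s3x and Eif2s3y. This gave 53 genes of the 21878 listed. They were followed in RNA-seq libraries of hematopoietic stem cells (HSCs) sorted as CD34-Flk2-Lineage-Sca1+c-Kit+ cells from the bone marrow (BM) of WT mice. The control group (n = 3 libraries) came from vehicle-treated mice, and the IGF1 group (n = 3 libraries) came from mice that were injected once under the skin with recombinant mouse IGF1 (200 µg/kg) and analyzed at day 1. The labels of the 2 groups differ only in treatment, and no age or number of mice per library is given in them. One description among the labels speaks of control or IR (irradiated) mice, while the treatment label names IGF1, and the groups follow the treatment label. The comparison asks how the mRNAs of the initiation machinery differ between HSCs with and without transient IGF1 stimulation.

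Translation initiation loads a ribosome onto an mRNA and sets it on the start codon. The eIF4F complex recruits the mRNA, with Eif4e encoding the protein that holds the 5′ cap, Eif4g1 the scaffold and Eif4a1 the RNA helicase, and the 4E-binding proteins (Eif4ebp genes) block cap binding until mTORC1, a kinase complex downstream of IGF1, phosphorylates them. The small ribosomal subunit carries eIF1, eIF1A, eIF3 and eIF5, while eIF2 brings the initiator tRNA, eIF2B recharges eIF2 with GTP, and the eIF2 kinases switch that step off under stress. HSCs are known to keep protein synthesis lower than their progeny. The files measure mRNA only, so neither protein levels nor phosphorylation were seen.

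The values are FPKM (reads scaled for the length of the gene and the depth of the library), and reads recovered from their steps came to between 11206800 and 15973834 per library. Control replicate 2 stood apart from the other controls. Control replicates 1 and 3 differed over 2-fold at 128 genes, control 1 and control 2 at 4176, and control 2 and the IGF1 libraries at 851 to 920. Fold changes and calls are therefore given with and without control 2, and the libraries are listed singly. The sorted population also carried mRNAs of proteins that its gate selects against. Cd34 was listed at 230.2 to 640.0 FPKM and Flt3, which encodes Flk2, at 116.6 to 188.0 FPKM, while the HSC genes Slamf1 (0.736 to 2.41 FPKM) and Hoxb5 (0.279 to 0.691 FPKM) were near the bottom. Nothing in the labels says that the libraries of a group came from separate mice, so the p-values may measure technical spread. In such sorted bulk RNA, fewer cells of a type and less RNA per cell cannot be told apart.

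Of the 53 genes, 51 passed the filter of at least 1 FPKM in at least 3 libraries. Eif4e1b, an oocyte-type cap-binding relative, was listed at 0 in all 6 libraries, and Eif5a2 passed 1 FPKM in only 2 libraries. With limma and Benjamini-Hochberg adjustment over the 10449 genes tested, at a fold change over 2 and an adjusted p under 0.05, 4 initiation factor genes were lower in the IGF1 libraries, namely Eif4e, Eif2s1, Eif4g2 and Eif1a. That is 7.84% of those tested, beside 4.63% of all genes. None was called higher by limma, nor by limma voom on the recovered reads, beside 1.98% of all genes, although 8 had an unadjusted p under 0.05 in that direction and 18 in the other. Without control 2 the calls were 6 higher (11.8%, beside 12.3% of all genes) and 11 lower (21.6%, beside 20.6% of all genes). In all 6 libraries, 10 genes had every IGF1 value above every control value (19.6%, beside 21.9% of all genes) and 19 had every one below (37.3%, beside 37.4% of all genes). As a group the initiation factors were thus called about as often as other genes, with a median log2 fold change of -0.11 against -0.18 over the genome. The 4 calls were close to the threshold. Without the filter on low values Eif1a and Eif4g2 lost theirs (limma adjusted p = 0.0557 and 0.0511), and once trends with transcript length and GC content were removed Eif2s1 was at -0.78, under the fold threshold. Removing those trends also turned the sign at Eif2a, Eif2b2, Eif3e, Eif5 and Eif6, and quantile normalization turned it at Eif1 and Eif6, none of which was called. Across genes the log2 fold change ran with GC content, with Pearson r = 0.38 over 10101 genes and 0.25 over the 51 initiation factors, as a description over points that share libraries. Inside the complexes, partner subunits had fold changes of opposite sign, mostly at genes that were not called. Among all genes tested 4221 had a positive fold change and 6228 a negative one, so sets of several genes often hold both signs. Whether partners differed in sign more than other genes was not tested.

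**Figure D1:**
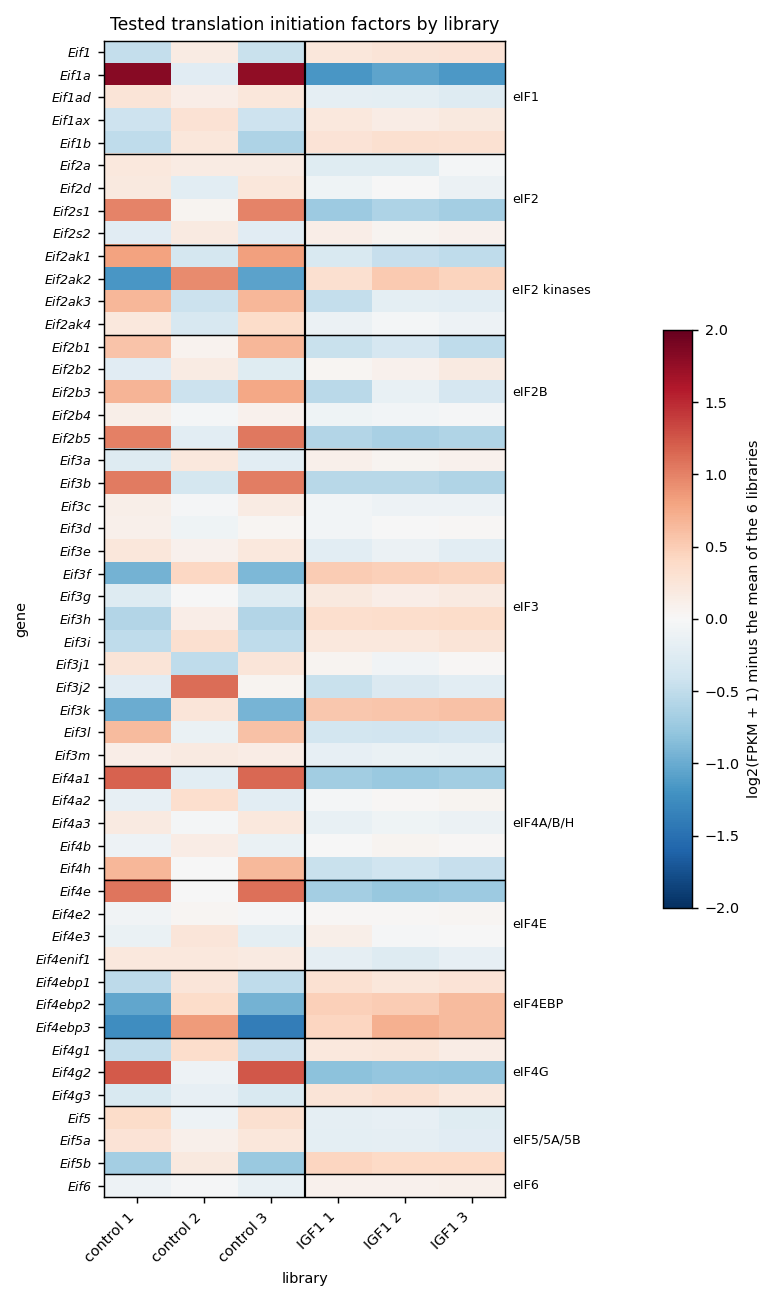
Heat map of the 51 tested initiation factor genes (rows, grouped by complex) in the 6 libraries (columns), colored by log2(FPKM + 1) minus the mean of the 6 libraries. Control 2 is colored unlike controls 1 and 3 in most rows, and each of the eIF2, eIF3 and eIF4G blocks holds rows that are red in the IGF1 libraries beside rows that are blue.

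The gene of the cap-binding protein fell, while its repressor genes had fold changes of the opposite sign. Eif4e lies at chr3:138526179-138559696 on the + strand (GRCm38). It was listed at 46.6, 21.5 and 47.2 FPKM in control replicates 1, 2 and 3 and at 13.1, 12.4 and 12.6 FPKM in the IGF1 replicates, resting on 1389 to 7531 reads. The groups did not overlap, and control 2 lay between them. The log2 fold change on log2(FPKM + 1) was -1.44 ± 0.31 (SE, limma adjusted p = 0.04), and -1.81 ± 0.05 without control 2. The related cap-binding genes were not called with or without control 2. Eif4e2, whose protein binds caps but represses translation, was listed at 17.2, 18.5 and 17.7 FPKM in the controls, against 18.3, 18.3 and 18.5 FPKM in the IGF1 libraries (log2 fold change 0.05 ± 0.09, limma adjusted p = 0.682, and 0.07 ± 0.05 without control 2). Eif4e3 ranged from 25.8 to 35.0 FPKM under vehicle and from 29.2 to 32.2 FPKM in the IGF1 libraries (0.06 ± 0.14, limma adjusted p = 0.737, and 0.19 ± 0.05 without control 2). Both groups overlapped at these genes. Eif4enif1, which encodes the carrier that takes eIF4E into the nucleus, lay at 13.4 to 13.6 FPKM in the 3 controls and 9.56 to 10.3 FPKM in the IGF1 libraries. Its log2 fold change of -0.40 ± 0.10 passed on p (limma adjusted p = 0.0457) but not on fold, stayed at -0.40 ± 0.06 without control 2, and here control 2 sat with the other controls. The pass depended on the scaling. Eif4enif1 was at -0.07 after quantile normalization (limma adjusted p = 0.667) and at -0.21 after TMM scaling (limma adjusted p = 0.15).

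All 3 repressor genes had positive fold changes, and none was called with all 6 libraries. Eif4ebp1 (chr8:27260329-27276674, + strand) was listed at 121, 206 and 122 FPKM in control replicates 1, 2 and 3 and at 215, 204 and 211 FPKM in the IGF1 replicates. Control 2 lay inside the IGF1 range, so the groups overlapped, and the log2 fold change of 0.53 ± 0.23 did not pass the test (limma adjusted p = 0.104). Without control 2 it was 0.78 ± 0.03 (limma adjusted p = 5.31e-09), still under 2-fold. Eif4ebp2 (chr10:61428491-61452661, - strand), present at far lower levels per length, was listed at 4.38, 13.2 and 4.71 FPKM without IGF1 and 14.4, 14.7 and 16.0 FPKM in the IGF1 libraries. All IGF1 values lay above all controls by a narrow margin, with a log2 fold change of 1.08 ± 0.38 (limma adjusted p = 0.0726). Eif4ebp3 gave 3.20, 16.8 and 2.80 FPKM in control libraries versus 12.3, 15.2 and 14.4 FPKM in the IGF1 libraries, and control 2 was above all of the others (1.18 ± 0.60, limma adjusted p = 0.147). Once trends with transcript length and GC content were removed its log2 fold change was 0.24 (limma adjusted p = 0.533). Both Eif4ebp2 (1.53 ± 0.06) and Eif4ebp3 (1.90 ± 0.09) were called higher without control 2.

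Since FPKM is per length, repressor and target can be set side by side within a library, and this ratio does not depend on the scaling of the library. Its level does depend on the gene lengths behind the FPKM. Reads and FPKM imply 10000 bases for Eif4e and 992 bases for Eif4ebp1, while the longest reference transcripts have 4991 and 1997 bases, so the ratio is best read between groups. The summed FPKM of the 3 Eif4ebp genes was 2.76, 11.0 and 2.76 times that of Eif4e in control replicates 1, 2 and 3. It was 18.4, 18.9 and 19.2 times in the IGF1 replicates. The groups did not overlap, and control 2 sat between them on its own. The mean ratio was 5.50 ± 4.75 (SD, n = 3) in the controls and 18.9 ± 0.412 (SD, n = 3) in the IGF1 libraries. The group means of the log2 ratios differed by 2.11, or by 2.77 without control 2. Eif4ebp1 made up most of the sum, and alone it gave 2.60, 9.59 and 2.60 in the controls and 16.4, 16.5 and 16.8 in the IGF1 libraries. An exact permutation test of 3 against 3 libraries cannot go below p = 0.1, so no p is given for the ratio.

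**Figure D2:**
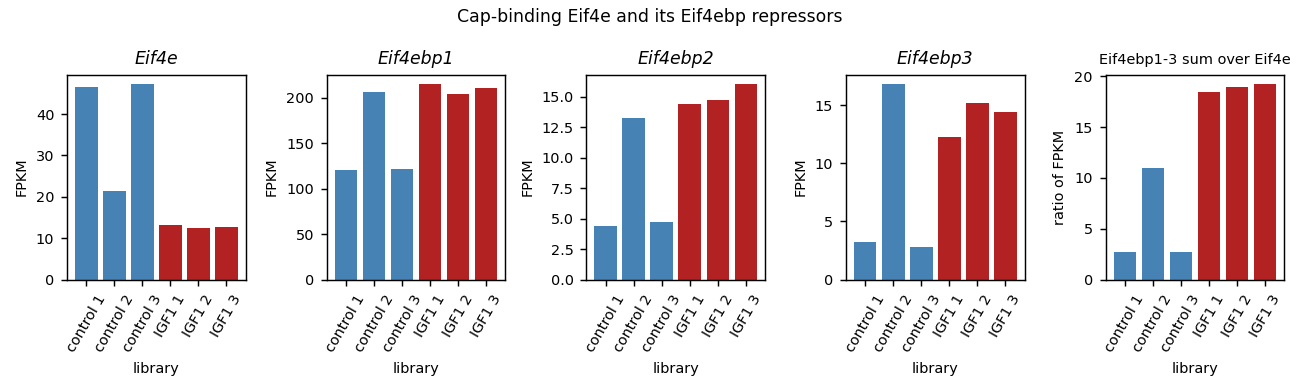
Bars give FPKM of Eif4e and of Eif4ebp1, Eif4ebp2 and Eif4ebp3, and the ratio of their summed FPKM to Eif4e, in each control (blue) and IGF1 (red) library. The ratio stands at 2.76 in controls 1 and 3, at 11.0 in control 2 and at 18.4 to 19.2 in the IGF1 libraries.

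The genes of the eIF4G family differed in sign as well. Eif4g2 (chr7:111067750-111083030, - strand) encodes DAP5, which lacks the eIF4E-binding part of the scaffold and serves cap-independent initiation. It was listed at 148, 58.4 and 149 FPKM in the controls, against 35.0, 36.2 and 35.6 FPKM in the IGF1 libraries. Its groups did not overlap, and it fell by 1.58 on the log2 scale (SE 0.37, limma adjusted p = 0.043), with a value of -2.02 without control 2. Eif4g1, the main cap-dependent scaffold, was listed at 17.5, 31.7 and 17.7 FPKM under vehicle and 28.9, 29.1 and 27.4 FPKM in the IGF1 libraries, where control 2 exceeded all of the IGF1 values (0.39 ± 0.24, limma adjusted p = 0.206, and 0.66 ± 0.05 without control 2). Eif4g3, a further scaffold, was at 5.97, 6.71 and 5.94 FPKM without IGF1 and 9.24, 9.62 and 8.94 FPKM in the IGF1 libraries (0.51 ± 0.11, limma adjusted p = 0.0407, and 0.56 ± 0.06 without control 2), so it passed the test on p but not on fold. Once trends with transcript length and GC content were removed it was at 0.23 (limma adjusted p = 0.0844), and after TMM scaling at 0.70 (limma adjusted p = 0.0345). Eif4g3 was among the few genes at which control 2 stayed near the other controls. Eif4g1 over Eif4g2 was 0.119, 0.543 and 0.119 in the controls and 0.826, 0.805 and 0.769 in the IGF1 libraries.

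Among the helicase genes, Eif4a1 was the second most abundant initiation factor in the controls by FPKM. It was listed at 668, 253 and 654 FPKM in control libraries versus 181, 176 and 181 FPKM in the IGF1 libraries, and ranked 11 of the 53 there. All IGF1 values were below all controls, yet the log2 fold change of -1.42 ± 0.39 missed the threshold (limma adjusted p = 0.0512), and it was called without control 2 (-1.88 ± 0.03). Its close relative Eif4a2 lay at 66.8 to 97.6 FPKM in the controls, against 75 to 80.2 FPKM in the IGF1 libraries, with overlap (0.03 ± 0.17, limma adjusted p = 0.902, and 0.20 ± 0.04 without control 2). The ratio of Eif4a1 to Eif4a2 was therefore 9.74, 2.59 and 9.79 in the controls and 2.41, 2.25 and 2.26 in the IGF1 libraries. Eif4h, which encodes a cofactor of the helicase, was listed at 252, 157 and 250 FPKM under vehicle and 116, 120 and 115 FPKM in the IGF1 libraries. It passed the test on p but not on fold (-0.87 ± 0.21, limma adjusted p = 0.0438), and fell over 2-fold without control 2 (-1.10 ± 0.03). With all 6 libraries it was at -1.08 after quantile normalization (limma adjusted p = 0.053) and at -0.66 after TMM scaling (limma adjusted p = 0.0464). The other cofactor, Eif4b, differed little between the groups, from 58.3 to 71.0 FPKM without IGF1 and 63.2 to 66.1 FPKM in the IGF1 libraries (log2 fold change 0.05, and 0.13 without control 2). Eif4a1, like Eif5a, has processed copies in the genome, and how reads shared with them were counted is not given in the sources used here.

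The E-box CACGTG, a palindrome that reads alike on both strands and is the site bound by MYC and its relatives, was looked for in the RefSeq promoter windows (GRCm38.p6, 250 bases before to 50 after each annotated start) because Eif4e is a textbook MYC target. Windows were found for 41 of the 53 genes. At least 1 window held the motif at 10 of these 41 genes (24.4%), beside 8.09% of all 27025 genes with a window. Those called without control 2 and with the motif in a window were Eif4e, Eif4a1 and Eif4h (3 of 8 genes called lower with a window) and Eif3f and Eif3k (2 of 5 called higher). Of the 28 initiation factors with a window that were not called, 5 held it (17.9%). These 5 include Eif3a, whose only site lies after its start, and Eif5a2, which was under the filter and not tested. The following 30-base stretches are printed 5′ to 3′ on the gene's strand with the motif in capitals, to show the sites that genes of both directions hold.
Eif4e, chr3:138527028-138527057, + strand: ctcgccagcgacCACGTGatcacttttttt
Eif4e, chr3:138527192-138527221, + strand: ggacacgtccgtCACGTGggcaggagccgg
Eif4a1, chr11:69672595-69672624, - strand: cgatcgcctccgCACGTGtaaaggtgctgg
Eif4h, chr5:134639488-134639517, - strand: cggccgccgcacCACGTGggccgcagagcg
Eif3f, chr7:108934335-108934364, + strand: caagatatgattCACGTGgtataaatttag
Eif3k, chr7:28981915-28981944, - strand: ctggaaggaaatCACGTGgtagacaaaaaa
The Eif4e sites begin 228 and 64 bases before 1 of its 2 annotated starts, which lies inside the gene as GENCODE draws it, and the window of the other start held none. Those of Eif4a1, Eif4h, Eif3f and Eif3k begin 189, 96, 68 and 44 bases before the start. A match is a description of the letters, and Eif2s1, which was called lower, held none in its single window.

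The genes of eIF2 differed between partners too. Eif2s1 (chr12:78861819-78887010, + strand) encodes eIF2 alpha, the subunit that the stress kinases phosphorylate. It was listed at 137, 71.6 and 137 FPKM in control libraries versus 40.9, 44.3 and 42.4 FPKM in the IGF1 libraries. The groups did not overlap, and it was called lower (-1.36 ± 0.27, limma adjusted p = 0.0369), with -1.67 ± 0.04 without control 2. Eif2s2, which encodes the beta subunit, was at 85.1, 112 and 84.9 FPKM in the controls, against 109, 103 and 105 FPKM in the IGF1 libraries, and control 2 was the highest of all (0.18 ± 0.14, limma adjusted p = 0.309, and 0.31 ± 0.03 without control 2). Eif2s1 was thus 1.61, 0.640 and 1.62 times Eif2s2 in the controls and 0.375, 0.430 and 0.405 times in the IGF1 libraries. Eif2a, whose protein can deliver initiator tRNA without eIF2, lay at 34.5 to 35.8 FPKM under vehicle and 25.8 to 30.0 FPKM in the IGF1 libraries (-0.35 ± 0.10, limma adjusted p = 0.054, and -0.36 ± 0.06 without control 2). Eif2d, with a related role, overlapped between the groups (log2 fold change -0.14, and -0.28 without control 2).

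Of the 5 genes of eIF2B, the exchange factor that recharges eIF2, 4 had negative fold changes and none was called with all 6 libraries. Eif2b1 was listed at 43.3, 30.5 and 46.4 FPKM without IGF1 and 21.0, 22.7 and 20 FPKM in the IGF1 libraries, and passed on p but not on fold (-0.86 ± 0.18, limma adjusted p = 0.0379, and -1.04 ± 0.06 without control 2). Eif2b5, the catalytic subunit, was at 69.8, 29.4 and 72.0 FPKM in control libraries versus 22.4, 21.6 and 22.2 FPKM in the IGF1 libraries (-1.23 ± 0.35, limma adjusted p = 0.0526, and -1.64 ± 0.04 without control 2). Eif2b3, which partners the catalytic subunit, was at 9.21, 3.72 and 9.84 FPKM against 3.37, 4.71 and 4.05 FPKM. At Eif2b3 control 2 lay inside the IGF1 range. All 3 were called lower without control 2 (log2 fold changes of -1.04, -1.64 and -1.07). By contrast, Eif2b2 of the regulatory core was at 62.3, 82.0 and 61.2 FPKM in the controls, against 74.8, 76.9 and 82.1 FPKM in the IGF1 libraries (0.19 ± 0.14, limma adjusted p = 0.281, and 0.33 ± 0.04 without control 2). Eif2b4, the remaining core subunit, lay between 28.1 and 32.5 FPKM in all 6 libraries (log2 fold change -0.11, and -0.16 without control 2).

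At all 4 eIF2 kinases the groups overlapped, and none was called with control 2 kept. Eif2ak1, the heme-regulated kinase, was listed at 33.0, 14.2 and 33.3 FPKM under vehicle and 14.8, 13.1 and 12.7 FPKM in the IGF1 libraries (-0.85 ± 0.33, limma adjusted p = 0.0862). Eif2ak2 (PKR), the kinase activated by double-stranded RNA and an interferon target, was at 5.43, 26.8 and 5.90 FPKM without IGF1 and 17.1, 19.7 and 18.6 FPKM in the IGF1 libraries. Control 2 thus gave the highest value of any library, past the IGF1 group. Without control 2, Eif2ak1 was called lower (-1.24 ± 0.06) and Eif2ak2 higher (1.54 ± 0.07). Eif2ak3 (PERK), the kinase of the endoplasmic reticulum, was low throughout, from 1.76 to 4.89 FPKM in control libraries versus 1.66 to 2.25 FPKM in the IGF1 libraries (-0.60 ± 0.32, limma adjusted p = 0.164, and -0.96 ± 0.10 without control 2). Eif2ak4 (GCN2), the amino acid sensor, lay at 3.66 to 6.50 and 4.34 to 4.66 FPKM (log2 fold change -0.18, and -0.38 without control 2).

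eIF3, the largest initiation complex, bridges the small ribosomal subunit and eIF4G, and its genes differed in direction. None of its 14 genes was called with all 6 libraries. At 4 genes (Eif3f, Eif3g, Eif3h and Eif3k) every IGF1 value lay above every control (28.6%, beside 21.9% of all genes). At 5 (Eif3b, Eif3c, Eif3e, Eif3l and Eif3m) every one lay below (35.7%, beside 37.4% of all genes). At 5 the groups overlapped. Both shares were thus near those over all genes. Eif3k, a peripheral subunit, was listed at 167, 396 and 175 FPKM in the controls, against 489, 493 and 505 FPKM in the IGF1 libraries (1.13 ± 0.35, limma adjusted p = 0.0582). By mean FPKM it ranked 6 of the 53 genes in the controls and 3 in the IGF1 libraries, and it was the most abundant subunit mRNA in every IGF1 library. Eif3f was at 89.0, 231 and 92.0 FPKM under vehicle and 247, 242 and 235 FPKM in the IGF1 libraries (0.96 ± 0.38, limma adjusted p = 0.0874). Eif3h, its partner in the same module, was at 172, 283 and 172 FPKM against 326, 330 and 334 FPKM (0.70 ± 0.22, limma adjusted p = 0.0603, and 0.93 ± 0.03 without control 2). At all 3 of these genes control 2 exceeded controls 1 and 3 and stayed under every IGF1 value.

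Eif3b, the scaffold of the core that holds Eif3g and Eif3i, had a negative fold change. Values stood at 238, 90.0 and 234 FPKM without IGF1 and 78.2, 78.1 and 75.8 FPKM in the IGF1 libraries (-1.14 ± 0.39, limma adjusted p = 0.0677). Eif3l, the direct partner of Eif3k in the complex, was at 193, 114 and 187 FPKM in control libraries versus 96.4, 95.1 and 98.4 FPKM in the IGF1 libraries (-0.72 ± 0.22, limma adjusted p = 0.0571, and -0.97 ± 0.03 without control 2). Eif3e, another peripheral subunit, was at 216, 197 and 215 FPKM against 160, 171 and 159 FPKM (-0.36 ± 0.11, limma adjusted p = 0.0559, and -0.40 ± 0.04 without control 2). Neighbours in the complex thus had fold changes of opposite sign. Eif3b over Eif3k was 1.43, 0.227 and 1.34 in the controls and 0.160, 0.158 and 0.150 in the IGF1 libraries. Without control 2, Eif3f (1.41 ± 0.03) and Eif3k (1.53 ± 0.03) were called higher and Eif3b (-1.60 ± 0.03) lower. Eif3i and Eif3g, which bind Eif3b, had log2 fold changes of 0.46 and 0.35 (0.73 and 0.43 without control 2), with overlap at Eif3i.

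The large structural subunits differed less. Eif3a lay at 53.3 to 73.7 FPKM in the controls, against 66.6 to 68.8 FPKM in the IGF1 libraries, Eif3c at 105 to 119 and 98.9 to 102 FPKM, and Eif3d, which can itself bind caps, at 86.8 to 98.8 and 89.4 to 93.8 FPKM. Their log2 fold changes were 0.17, -0.18 and -0.03, and 0.32, -0.23 and -0.08 without control 2. Leaving out the loosely bound eIF3j pair, the highest of 12 subunits was 4.83, 5.38 and 4.69 times the lowest in the controls and 7.11, 7.41 and 7.44 times the lowest in the IGF1 libraries. The summed FPKM of the 14 genes was 2030, 2460 and 2030 in the controls and 2530, 2530 and 2550 in the IGF1 libraries. Eif3j1 and Eif3j2 are near-identical copies, and reads may be split between them, so each is uncertain. Their sum was 43.2, 29.4 and 43.3 FPKM under vehicle and 37.0, 34.3 and 36.8 FPKM in the IGF1 libraries, with overlap.

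**Figure D3:**
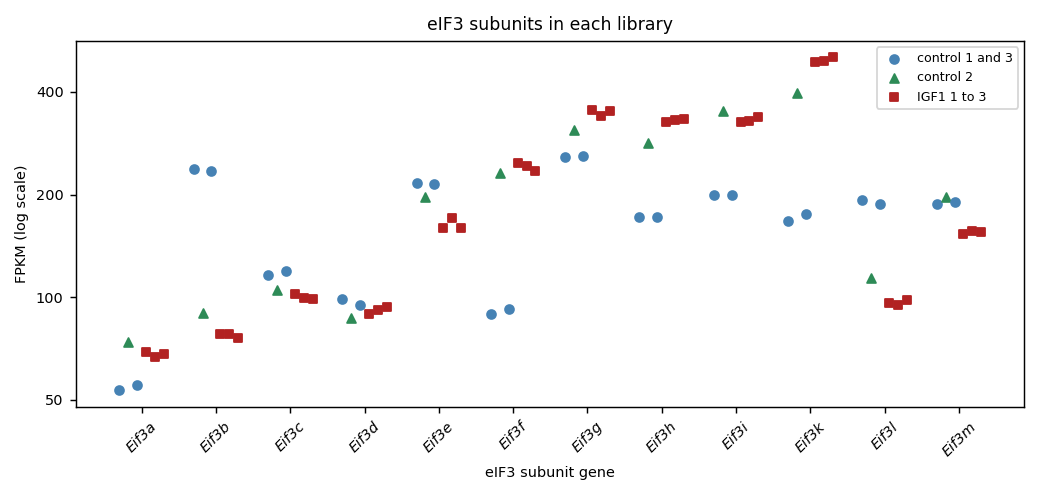
FPKM (log scale) of 12 eIF3 subunit genes in controls 1 and 3 (circles), control 2 (triangles) and the IGF1 libraries (squares). At Eif3f, Eif3h and Eif3k the squares lie above the circles, at Eif3b and Eif3l below, and the triangle lies close to the squares at most of these.

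Of the factors that scan for the start codon, Eif1a had the largest negative fold change of all initiation factors in the main comparison. Its values were 106, 24.8 and 103 FPKM without IGF1 and 12.6, 13.6 and 12.7 FPKM in the IGF1 libraries. The groups did not overlap (-2.24 ± 0.56, limma adjusted p = 0.0459), and without control 2 the value was -2.92 ± 0.05. Eif1ax on the X chromosome encodes a near-identical eIF1A protein and was at 141, 228 and 140 FPKM in control libraries versus 216, 208 and 214 FPKM in the IGF1 libraries (0.36 ± 0.21, limma adjusted p = 0.193, and 0.59 ± 0.03 without control 2). The sum of both genes was 247, 252 and 244 FPKM in the controls, against 228, 222 and 226 FPKM in the IGF1 libraries. Reads may be split between such near-identical copies, so the fall of Eif1a by itself is uncertain, while the sum differed far less between the groups.

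Eif1, the start codon gatekeeper, was the most abundant gene of this set in both groups, at 417, 645 and 425 FPKM under vehicle and 674, 688 and 700 FPKM in the IGF1 libraries (0.50 ± 0.21, limma adjusted p = 0.102, and 0.71 ± 0.03 without control 2). Its paralog Eif1b was at 72.0, 121 and 67.1 FPKM without IGF1 and 125, 129 and 127 FPKM in the IGF1 libraries (0.60 ± 0.23, limma adjusted p = 0.0854, and 0.86 ± 0.04 without control 2). At both genes every IGF1 value lay above every control. Eif1ad, a ribosome assembly protein named for its eIF1A domain, was at 63.5, 58.2 and 61.6 FPKM against 46.7, 46.0 and 44.1 FPKM. It passed on p (-0.41 ± 0.09, limma adjusted p = 0.0412, and -0.45 ± 0.04 without control 2) but not on fold. After quantile normalization (-0.23, limma adjusted p = 0.0956) or TMM scaling (-0.21, limma adjusted p = 0.106) it did not pass on p.

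At the joining step, Eif5b, the GTPase that unites the ribosomal subunits, differed from the others of its class in sign. The libraries gave 11.2, 21.4 and 10.7 FPKM in control libraries versus 25.4, 24.9 and 24.8 FPKM in the IGF1 libraries (0.82 ± 0.26, limma adjusted p = 0.0614), and was called higher without control 2 (1.12 ± 0.05). Eif5, which makes eIF2 hydrolyse its GTP, was at 115, 83.2 and 111 FPKM in the controls, against 78.6, 79.5 and 74.7 FPKM in the IGF1 libraries (-0.39 ± 0.15, limma adjusted p = 0.082, and -0.53 ± 0.04 without control 2). Eif5a, the hypusine-bearing factor that also serves elongation, was the most abundant initiation factor mRNA by FPKM in all 6 libraries. Its values were 1050, 929 and 1020 FPKM under vehicle and 754, 764 and 741 FPKM in the IGF1 libraries (-0.41 ± 0.16, limma adjusted p = 0.083, and -0.46 ± 0.02 without control 2). The size depended on the scaling, from -0.15 after scaling to the 75th percentile (limma adjusted p = 0.533) to -1.22 after quantile normalization (limma adjusted p = 0.0522). At these 3 genes the groups did not overlap. Eif5a2, under the filter, was at 1.87, 0.683 and 1.90 FPKM against 0.388 to 0.424 FPKM. Eif6, which keeps the large subunit from joining too early, was at 199, 212 and 193 FPKM against 227, 228 and 230 FPKM (0.18 ± 0.11, limma adjusted p = 0.192, and 0.22 ± 0.03 without control 2).

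**Figure D4:**
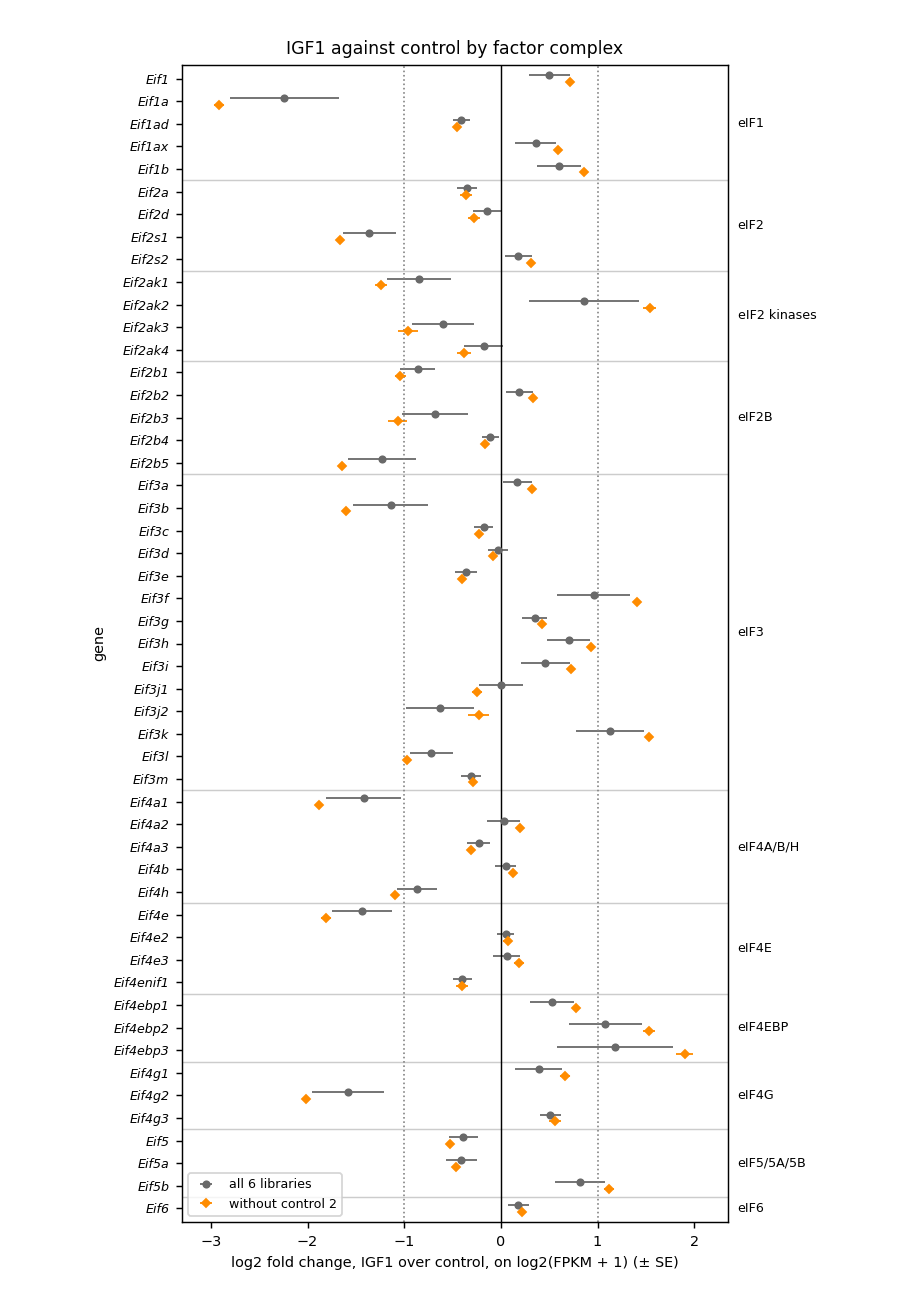
Log2 fold change, IGF1 over control, on log2(FPKM + 1) with its standard error for the 51 tested genes by complex, from all 6 libraries (gray circles) and without control 2 (orange diamonds), with dotted lines at 2-fold. The diamonds lie farther from 0 than the circles at most genes, with far shorter bars.

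The position of control 2 was much the same across the initiation factors as across the genome. On a scale on which controls 1 and 3 are at 0 and the IGF1 mean is at 1, its median position was 0.81 over the 29 initiation factor genes that differed by over 0.5 (log2) between those groups, against 0.81 over 6619 genes of all tested. It was nearer the IGF1 libraries at 28 of the 29, with a range of 0.26 to 1.33, the lowest being Eif4g3 and the highest Eif2ak2. Dropping any 1 library other than control 2 left 0 calls by limma among the initiation factors and 0 among all genes, with 12 or 13 initiation factors at an unadjusted p under 0.05.

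The summed FPKM of all 53 genes hardly differed, at 6390, 6400 and 6350 in the controls and 6040, 6070 and 6080 in the IGF1 libraries. As a share of all listed FPKM it was 1.37, 1.01 and 1.36% in the controls and 0.887, 0.895 and 0.896% in the IGF1 libraries. The scaling of the libraries matters to such levels. After TMM scaling the genome-wide median moved from -0.18 to 0.00 on the log2 scale and that of the initiation factors from -0.11 to 0.10, and calls over all genes went from 207 higher and 484 lower to 297 and 261. The calls of the initiation factors were 0 higher and 4 lower under both.

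Other genes of protein synthesis were read from the same test. All 79 tested cytosolic ribosomal protein genes had every IGF1 value above every control, beside 21.9% of all genes. Their median log2 fold change was 1.56, against -0.18 over all genes. Of them 5 were called higher (6.33%, beside 1.98% of all genes), and 77 without control 2 (97.5%, beside 12.3%), where the median was 2.15. Of 37 aminoacyl-tRNA synthetase genes, with a median of -1.02, 5 were called lower (13.5%, beside 4.63% of all genes), and 22 without control 2 (59.5%, beside 20.6%), where the median was -1.32. The initiation factors, with a median of -0.11 (-0.23 without control 2), lay between these lists. Of 42 tested genes that act beside the initiation factors (elongation and release factors, regulators of eIF2 and eIF4E, and mTORC1 parts), 1 was called higher (2.38%, beside 1.98% of all genes) and 3 lower (7.14%, beside 4.63%). Without control 2 the calls were 9 higher (21.4%, beside 12.3%) and 8 lower (19.0%, beside 20.6%). Mcts2, a retrogene relative of the reinitiation factor Mcts1, was listed at 1.56, 2.06 and 1.32 FPKM without IGF1 and 6.66, 4.42 and 8.06 FPKM in the IGF1 libraries (1.46 ± 0.22, limma adjusted p = 0.029, and 1.57 ± 0.18 without control 2). Its reads may be shared with Mcts1, so it is uncertain. Paip1, which links poly(A)-binding protein to eIF4A, was at 16.6, 8.81 and 16.3 FPKM against 5.75, 5.86 and 5.37 FPKM (-1.11 ± 0.25, limma adjusted p = 0.0413, and -1.39 ± 0.06 without control 2). Abce1, the ribosome recycling factor, was at 109, 30.3 and 104 FPKM against 17.0, 19.0 and 19.4 FPKM (-1.87 ± 0.49, limma adjusted p = 0.0483, and -2.47 ± 0.06 without control 2). Dph2, of the pathway that modifies eEF2, was at 22.0, 11.4 and 22.1 FPKM against 5.88, 8.84 and 7.62 FPKM (-1.17 ± 0.29, limma adjusted p = 0.0459, and -1.46 ± 0.12 without control 2). Mtor (0.01 ± 0.16, limma adjusted p = 0.964, and 0.16 ± 0.07 without control 2) and Rptor (-0.01 ± 0.11, limma adjusted p = 0.948, and 0.03 ± 0.07 without control 2) overlapped between the groups.

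Markers of other BM cells differed between the same libraries, with members of 1 list in different directions. The summed FPKM of 14 neutrophil and monocyte genes was 3250, 5830 and 3300 in the controls and 5850 to 5890 in the IGF1 libraries. Every IGF1 value lay above every control at 3 of these genes and below at 6, beside 21.9% and 37.4% of all genes tested. S100a8 was at 284.0, 163.1 and 284.7 FPKM against 55.0 to 72.8, and Ngp at 79.0, 11.5 and 78.2 FPKM against 2.22 to 3.73. By contrast, Elane was at 92.8, 576.1 and 92.5 FPKM against 692.1 to 709.2. The sum of 10 B cell genes was 185, 531 and 186 against 500 to 520, with 4 genes above and 1 below. That of 10 T and NK cell genes was 399, 811 and 389 against 804 to 821, almost all of it Nkg7, and the other 9 summed to 32.8, 35.9 and 33.5 against 33.7 to 36.9. That of 11 erythroid genes was 522, 377 and 523 against 274 to 291, with Car2 as the largest part, and 70.5, 125 and 72.8 against 68.9 to 74.1 without it. None of these genes was at 0 in all libraries, but defining genes of mature B and T cells were low in each, with at most 0.339 FPKM of Ms4a1 and 0.206 of Cd3e. The sum of 15 HSC genes was 1260, 1160 and 1270 against 878 to 908. Without Cd34 and Flt3, whose proteins the gate selects against, the other 13 summed to 502, 727 and 516 against 465 to 482. The sums without single genes were formed after the values were seen. The part of these cells in the differences of the initiation factors was not tested.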

How the data were processed

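HSCs were profiled with a TruSeq Stranded mRNA kit in 6 libraries. Per the labels, fastp, HISAT2 and StringTie were used with GRCm38/mm10, while the methods name RSEM, so the source of the values is unsettled. The authors deposited 1 value per gene and library, taken as FPKM from its steps: scaled by relative depth, the values of 15640 of 15640 genes above 0 were whole reads within 0.02. These reads gave the depths and 1 alternative (limma voom, 382 genes higher and 680 lower).

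Genes that reached 1 FPKM in 3 or more libraries were tested with limma 3.58.1 (R 4.3.3; lmFit, eBayes with a trend) on log2(FPKM + 1), without further scaling. Fold changes on this scale understate those of low genes. Positions came from GENCODE M21 and promoters from RefSeq (GRCm38.p6). The script was tested on simulated data. Python 3 scripts made the figures.

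Members and lists were chosen with earlier results of these data known. The rule named called genes, the cap-binding genes and repressors, and per complex the most abundant gene and the 2 with the smallest p, and up to 3 called genes per direction of the neighbouring list. The others named (such as Eif1b, Eif3b, Eif3f, Eif4g1, Eif2ak2 and Mtor) were chosen after their values were seen. Alternatives changed scaling, filter, pseudocount, variance trend, block, weights, thresholds, length and GC trends, and left out each library.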

Additional observations from a re-analysis of the deposited data

How the results depend on the processing

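Control replicate 2 decided the calls. Leaving out 1 library at a time gave 0 to 6 initiation factors higher and 0 to 11 lower, with a median log2 fold change of -0.23 to -0.07, and 0 to 9 neighbouring translation genes higher and 0 to 8 lower. Library weights, which put 0.0137 on control 2, gave 6 and 11 initiation factors and 9 and 8 neighbouring genes, with a median of -0.21. The group means of the log2 Eif4ebp to Eif4e ratio differed by 2.11, by 2.04 with Eif4ebp1 alone and by 2.72 with Eif4ebp2 alone.

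With the replicate number as a replicate block, 0 initiation factors were called in either direction, 0 neighbouring genes and 0 of all genes. Deviations of libraries with the same number correlated at -0.057 to 0.006. Whether the numbers pair the libraries cannot be decided from this, because control 2 dominated the deviations of all controls. Against IGF1 replicate 1, control replicates 1 and 3 gave -0.057 and -0.054, and control replicate 2 gave 0.057.

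The median of the initiation factors was -0.05 after quantile normalization, 0.14 after scaling to the 75th percentile, 0.10 after TMM scaling, 0.00 at a minimum of 5 FPKM, -0.12 without a filter, -0.10 at a pseudocount of 5 and 0.07 once length and GC trends were removed. Initiation factors called lower numbered 8 (and 1 higher) on adjusted p alone, 6 at a fold over 1.5, 2 without a filter, 3 without length and GC trends and 5 with voom. Neighbouring genes called lower numbered 10 on adjusted p alone, 8 at a fold over 1.5, 0 after quantile normalization, 1 after 75th percentile or TMM scaling, without a filter or without length and GC trends, 0 at a pseudocount of 5, and 5 at a pseudocount of 0.1 or with voom. Those called higher numbered 0 at a minimum of 5 FPKM, at a pseudocount of 5 and without length and GC trends.

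Some genes that were not called changed sign. Quantile normalization gave -0.19 for Eif1 and -0.06 for Eif6. Removing length and GC trends gave 0.23 for Eif2a, -0.21 for Eif2b2, 0.16 for Eif3e, 0.11 for Eif5 and -0.40 for Eif6. Eif4e3 ran from -0.02 to 0.19 when 1 library was left out. Except where a value follows from fewer libraries or genes, the cause was not tested. Depth limits Eif5a2, Eif3j2 and Eif2ak3, which had as few as 25, 35 and 99 reads in a library.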
